A study of Mus musculus with 6 samples.

Results

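The genes described here are 31 markers and effectors of white blood cells: macrophages, monocytes, neutrophils, B and T lymphocytes, and the MHC class II molecules with which some of these cells display antigen. They were chosen by name as genes of these cells, with earlier results of these data known. All 31 have a probe set on the array that names only that gene, out of 18193 such genes. They were measured in whole hearts of mice that lack estrogen-related receptor alpha (ERRα, gene Esrra), an orphan nuclear receptor that drives genes of mitochondrial energy metabolism, and in wild-type hearts, in order to compare the null hearts with the wild type. Each of the 6 hearts, 3 per genotype, was hybridised alone to an Affymetrix mouse expression array under basal conditions, with no treatment. All 6 mice are labelled male. For 5 of them the labels add the strain C57BL/6J and an age of 2 to 3 months, while the label of WT 1 gives neither. The libraries are called WT 1 to WT 3 and KO 1 to KO 3 after their labels. The labels call the mice ERRα-null or KO, and name no promoter, Cre or cell type for the deletion.

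The adult heart holds a resident population of macrophages, many of them seeded before birth, which lie between the myocytes, take up debris and carry scavenger receptors such as Mrc1, Cd163, Lyve1 and Timd4. Circulating monocytes, marked by Ccr2, can enter and add to them. MHC class II molecules are made of an alpha and a beta chain, are held in the cell by the invariant chain Cd74, and present peptides to helper T cells on dendritic cells, B cells and a subset of the macrophages. Because RNA of the whole heart was hybridised, a difference in the number of such cells and a difference in RNA per cell cannot be told apart.

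The array signal of Esrra was 368.1, 394.4 and 349.1 in WT 1 to WT 3, and 180.1, 24 and 18 in the libraries labelled KO 1, KO 2 and KO 3. The library labelled KO 1 therefore kept 48.6% of the wild-type mean, against 6.48% and 4.86% in the other two, which goes against its label. Values without it are given beside the results that it moved. The array labelled WT 1 was brighter than the others, with a median signal of 16 against 12.4 to 13.7, and a comment inside its file gives that mouse another wild-type number. The tissue label held: the summed signal of 11 ventricular and pan-cardiac myocyte markers ran from 73530 to 83677 over the 6 hearts. Atrial myocyte markers did differ between the groups, with 7 of 9 tested higher in the libraries labelled KO, a median log2 difference of 1.68, and summed signals of 3114 to 9851 in the wild-type hearts against 14056 to 16743. The part of this in the results below was not tested.

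Of the 31 genes, 28 were bright enough to test, 5 rose in the libraries labelled KO and 0 fell at an adjusted p under 0.05 (limma, Benjamini-Hochberg over 12946 genes). Over all genes tested, 1.78% rose and 1.18% fell. The 5 were Jchain, which joins immunoglobulin chains into polymers, the class II chains H2-Ab1 and H2-Aa, and the scavenger receptors Cd163 and Lyve1. The log2 difference, KO minus WT on the scale log2(signal + 16), was above 0 for 19 and below 0 for 9 of the 28, with a median of 0.17 against -0.028 over all genes tested. Jchain reached the level for testing only through the libraries labelled KO, in which it was high, so it had to differ to be tested at all. Of the 27 genes whose means in both groups reached that level, 4 rose and 0 fell, with a median of 0.16. Without adjustment, 8 of the 28 had a p under 0.05 with the higher level in the libraries labelled KO, and 0 with the lower level, against 6.07% and 6.44% of all genes. All 3 libraries labelled KO lay above all 3 wild-type hearts for 4 genes, Cd163, Lyve1, H2-Ab1 and Jchain (6.81% of all genes), and below them for 1, Mrc1 (9.41% of all genes). The groups overlapped for the other 23.

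**Figure D1:**
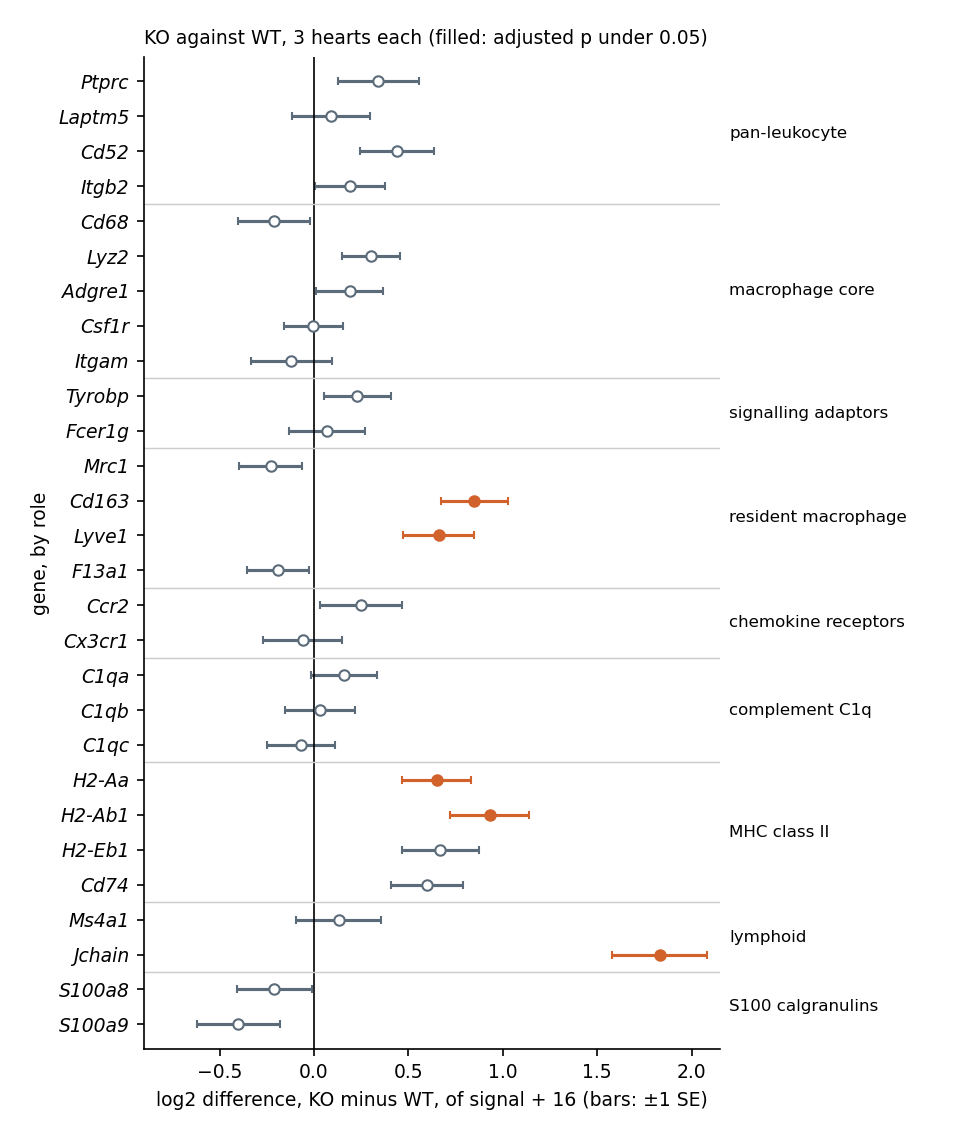
Log2 difference (KO minus WT, horizontal axis, log2(signal + 16) scale) of each of the 28 tested genes, with 1 row per gene and bars of 1 standard error on each side. The 5 genes past an adjusted p of 0.05 lie between 0.65 and 1.83, and the rest lie on both sides of 0.

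Within the libraries labelled KO, the hearts took a similar order for most of the 28 genes. Over all 6 hearts the order varied more. The lowest was KO 1 for 13 genes, WT 2 for 8 and WT 3 for 6, and the highest was KO 3 for 17, WT 1 for 6 and KO 2 for 4. Among the libraries labelled KO, KO 1 was the lowest for 27 of the 28 genes (32.9% of all genes tested) and KO 3 the highest for 23 (42.6% of all genes); the exception for KO 1 was F13a1. Among the wild-type hearts, WT 1 was the highest for 24 of the 28, but this array was the highest for 76.2% of all genes as well. With the arrays quantile-normalized, the library labelled KO 1 was again the lowest of its group for 27 and KO 3 the highest for 21. These 28 values come from the same 6 hearts and are not independent of each other.

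**Figure D2:**
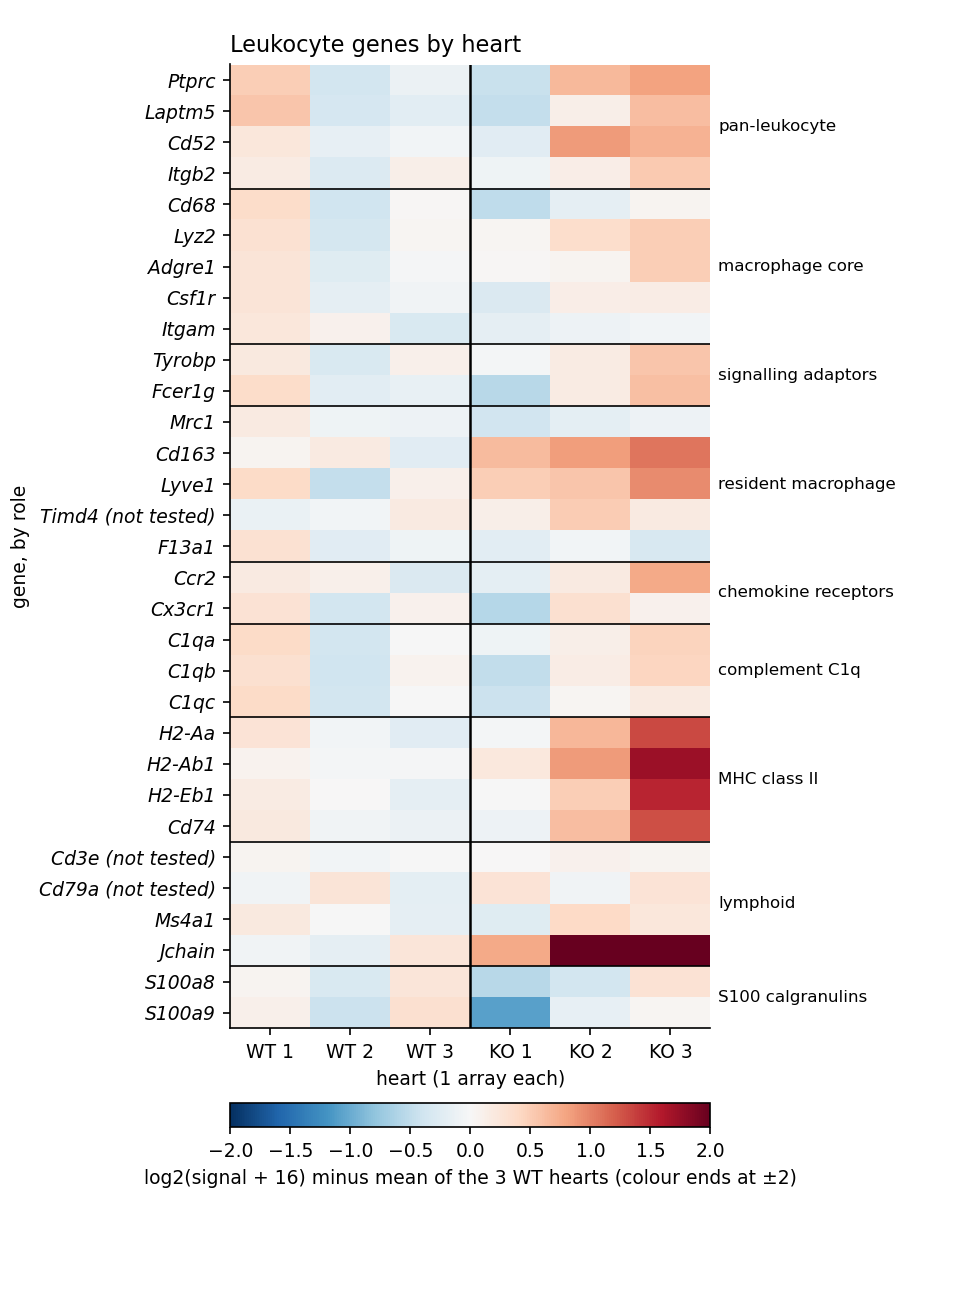
Log2(signal + 16) of each of the 31 genes in each heart minus the gene's wild-type mean, as colour (red higher, blue lower), with 1 row per gene grouped by role and 1 column per heart; the colour scale stops at 2 on either side. In nearly every tested row the library labelled KO 1 is less red or more blue than KO 2 and KO 3, and the reddest class II values are those of KO 3.

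Among the role groups with more than 2 tested genes, the MHC class II genes had the highest median log2 difference, 0.66: all 4 had a positive difference and 2 of the 4 passed the test. The lymphocyte genes had a higher median, 0.98, over 2 tested genes, Jchain and Ms4a1. H2-Ab1, the beta chain of the I-A molecule, had signals of 108.3, 99.1 and 99.9 in WT 1 to WT 3, while those of KO 1 to KO 3 were 120.6, 197.6 and 373.1. The wild-type hearts lay close together and each library labelled KO lay above them, KO 3 by far the most. With means of 102 ± 5.1 and 230 ± 129 (SD, n = 3 each), the log2 difference was 0.93 (SE 0.208, adjusted p = 0.00423). H2-Aa, the alpha chain of the same molecule, gave 814.1, 644 and 567.6 against 649.7, 1065.9 and 1686.1. The library labelled KO 1 lay within the wild-type range and the other two above it. The means were 675 ± 126 and 1134 ± 522 (SD, n = 3 each), with a log2 difference of 0.65 (SE 0.184, adjusted p = 0.0359).

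The other two class II genes did not pass. H2-Eb1, the beta chain of I-E, whose alpha chain is not made in C57BL/6 mice, gave 257.7, 229.3 and 198.3 against 225.7, 326.4 and 679.9, with a log2 difference of 0.67 (SE 0.206, adjusted p = 0.0648). Cd74, the invariant chain, gave 431.2, 357.5 and 346.4 against 350.2, 584.6 and 943.1, with a log2 difference of 0.60 (SE 0.191, adjusted p = 0.0793). In both, KO 2 and KO 3 lay above the wild-type range and the library labelled KO 1 within it. Averaged over the 4 genes, the log2 signals of the libraries labelled KO 1 to KO 3 relative to the wild-type mean were 0.01, 0.66 and 1.46. Those of the wild-type hearts spread from -0.14 to 0.18. Without the library labelled KO 1, all 4 passed, with log2 differences of 0.99 (H2-Aa), 1.28 (H2-Ab1), 1.01 (H2-Eb1) and 0.95 (Cd74). Without KO 3, none of the 4 passed, with log2 differences of 0.31, 0.53, 0.24 and 0.26 in the same order. None passed without WT 1, and H2-Aa did not pass without WT 3 (0.53).

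Several probe sets read the I-A chains. The 3 further probe sets of H2-Aa had log2 differences of 1.05, 1.15 and 0.53, and in each of them all 3 libraries labelled KO lay above the wild-type hearts. The 2 further probe sets of H2-Ab1 had differences of 0.76 and 0.49, with overlapping groups. Of these 7, 6 have a name ending in _x_at or _s_at, which marks probes that can also match other genes, and 1 of H2-Ab1, with the difference of 0.76, ends in _a_at, which marks several transcripts of 1 gene. In the former, signal from related genes cannot be told apart.

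Class II genes are switched on together through short promoter elements, the X and Y boxes, to which the RFX complex and NF-Y bind and on which the coactivator CIITA assembles. The 150 bases upstream of the RefSeq start are shown for the 2 class II genes in which the core of the Y box, CTGATTGG, was found. H2-Ab1 and Cd74 had a similar pattern across hearts and are not shown. For these, either no window was available or it held no match. The build is GRCm38.p6, the sequences run 5′ to 3′ along the gene's strand and the capitals mark the match.
H2-Aa (chr17:34287824-34287973, minus strand): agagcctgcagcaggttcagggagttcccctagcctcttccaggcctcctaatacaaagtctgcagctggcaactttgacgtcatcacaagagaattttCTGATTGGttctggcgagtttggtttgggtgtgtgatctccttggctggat
H2-Eb1 (chr17:34305717-34305866, plus strand): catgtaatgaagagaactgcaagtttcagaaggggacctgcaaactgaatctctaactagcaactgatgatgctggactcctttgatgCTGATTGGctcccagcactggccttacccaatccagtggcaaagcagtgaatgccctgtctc
The match lies 51 to 44 bases before the start in H2-Aa and 62 to 55 bases before it in H2-Eb1. The search covered both strands of windows from 250 bases before to 50 bases after the start; 21 of the 31 genes had such a window. The Y box core occurred in the windows of these 2 genes and in 4.1% of all 32851 windows. A part of the X box, CCNAGNNAC, occurred in those of Cd3e, F13a1, Fcer1g and H2-Aa, and in 17.3% of all windows. A site for PU.1, the macrophage and B cell factor, GAGGAAGT, occurred in those of C1qc, F13a1 and S100a8, and in 3.2% of all. The extended half-site of the ERR receptors, TNAAGGTCA, occurred in 1.28% of all windows and in 0 of the 21 genes. In H2-Aa the match to the part of the X box lay 180 to 172 bases before the start, well apart from the Y box match at 51 to 44. Whether it is the X box of that gene was not tested. A window without these letters, such as that of H2-Eb1, may hold an X box with other letters. A match describes the letters in the window only.

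None of the genes that load and regulate class II passed the test. Of 13 listed, which include the peptide exchangers, the RFX subunits and CIITA, 10 were tested and 0 rose or fell, with a median log2 difference of 0.08. The difference was positive for 7 of the 10. The 2 smallest p-values belonged to genes that were lower in the libraries labelled KO. Rfx5, a subunit of the RFX complex, gave 55.4, 44.7 and 44 against 40.7, 25.1 and 16.7, with no overlap, and a log2 difference of -0.59 (adjusted p = 0.0905). H2-Oa, a chain of the exchange inhibitor H2-O, had a difference of -0.74 (adjusted p = 0.101) at signals of 28.6 and below in every heart; its mean in the libraries labelled KO lay under the level for testing. Without the library labelled KO 1, 3 of the 10 passed: Rfx5 (-0.80) and H2-Oa (-0.88) fell, and Ifi30, the thiol reductase that unfolds antigens in lysosomes, rose (0.71, adjusted p = 0.0189). Over all 6 hearts Ifi30 had a difference of 0.53 (adjusted p = 0.111). Ifi30 was chosen here after its values were seen. Dendritic cell genes, another source of class II, numbered 11 tested, with 0 past the test and a median of 0.07. Among them Cd209a had a log2 difference of 0.54 (adjusted p = 0.274), with a wild-type mean below the level for testing. Irf8, a factor needed by 1 dendritic cell lineage, had a difference of 0.44 (adjusted p = 0.313). Without the library labelled KO 1, Irf8 rose (0.68, adjusted p = 0.0332).

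Of the 5 resident macrophage genes, 2 rose, 2 did not pass and 1 was too dim to test. Cd163, the receptor that clears haemoglobin-haptoglobin complexes, gave 68.2, 75.7 and 53.6 in the wild type, against 110.2, 129.9 and 154.9 in the libraries labelled KO. The groups were well apart, and the library labelled KO 1 lay with its group. With means of 65.8 ± 11.2 and 132 ± 22.4 (SD, n = 3 each), the log2 difference was 0.85 (SE 0.175, adjusted p = 0.00152), or 1.8-fold on that scale. Cd163 also passed whichever heart was left out, with log2 differences of 0.74 to 0.96. Lyve1, a hyaluronan receptor shared by resident macrophages and lymphatic endothelium, gave 127.4, 62.7 and 101.2 against 138.2, 144.5 and 194.5. The lowest library labelled KO lay just above the highest wild-type heart. The means were 97.1 ± 32.5 and 159 ± 30.8 (SD, n = 3 each), with a log2 difference of 0.66 (SE 0.186, adjusted p = 0.0343). Its second probe set had a difference of 0.53 with overlapping groups. The call for Lyve1 did not hold without WT 1 (0.85), without WT 2 (0.42) or without KO 3 (0.52).

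The other 2 resident macrophage genes tested had differences below 0 and did not pass. Mrc1, the mannose receptor, gave 226.9, 184.5 and 183.8 against 148.1, 170.8 and 182: every library labelled KO was below every wild-type heart, with a log2 difference of -0.23 that did not pass (SE 0.168, adjusted p = 0.661). F13a1, the A subunit of coagulation factor XIII, had a difference of -0.19 (adjusted p = 0.722), with signals of 278.3 to 435.2. Timd4, a receptor for dying cells, was below the level for testing on average, with signals of 2, 3 and 6.3 against 5.4, 12.1 and 6.4. Beside Lyve1, the other markers of lymphatic endothelium moved in no common direction: of 6 tested, 0 passed, the median was 0.08, and Pdpn (0.46, adjusted p = 0.166), Reln (0.45, adjusted p = 0.24) and the lineage factor Prox1 (-0.41, adjusted p = 0.385) had the smallest p-values. Prox1 gave signals of 33.8 to 98.8, and the part of lymphatic vessels in the rise of Lyve1 was not tested.

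**Figure D3:**
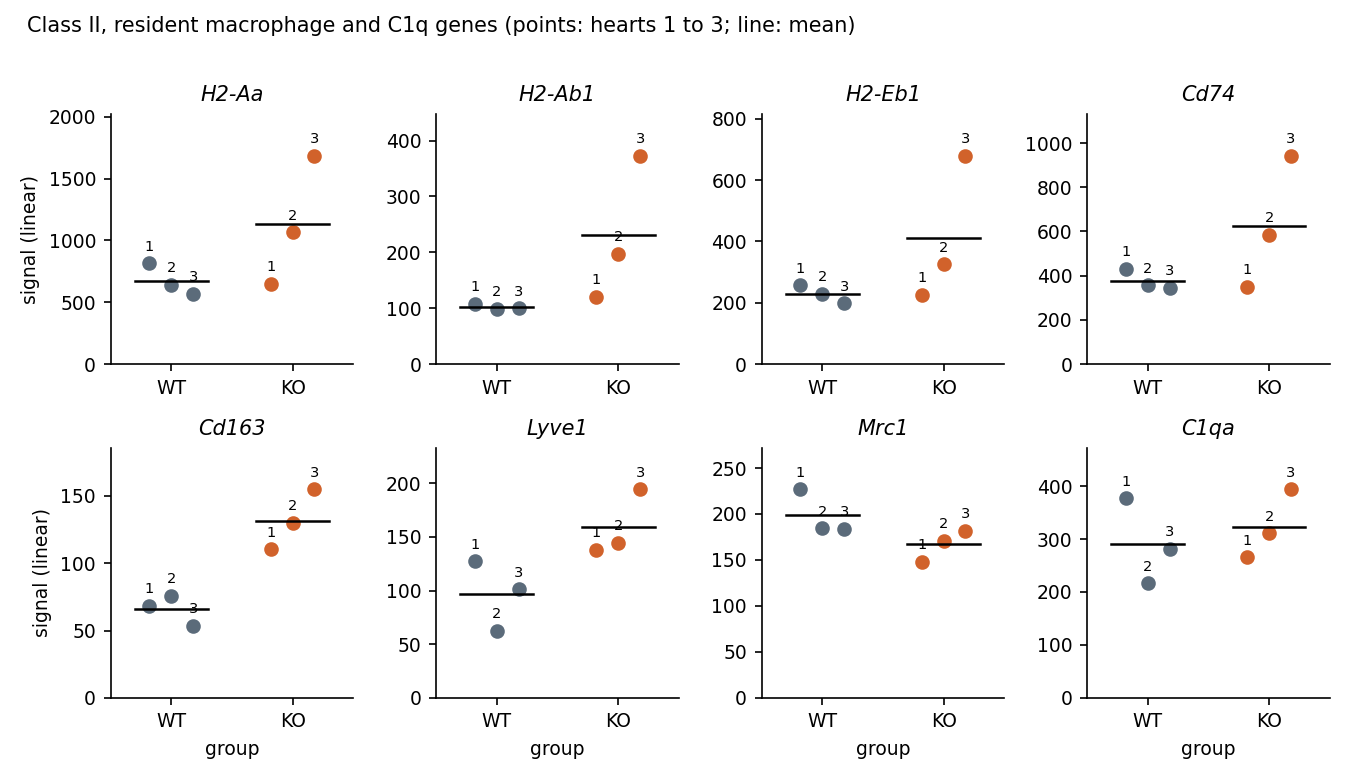
Array signal (vertical axis, linear, from 0, 1 panel per gene) of the 4 class II genes, Cd163, Lyve1, Mrc1 and C1qa in the wild-type hearts and the libraries labelled KO, with 1 numbered point per heart and a line at the group mean. In the class II panels KO 3 is far above the rest and the library labelled KO 1 is close to the wild type, whereas for Cd163 all 3 libraries labelled KO are above it and for Mrc1 all 3 are below.

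None of the 5 genes that mark macrophages as a whole passed the test. Csf1r, the receptor for the survival factor CSF1, gave 859, 628 and 681 in the wild type, against 580.4, 789 and 797.6 in the libraries labelled KO, a log2 difference of -0.00264 (SE 0.154, adjusted p = 0.997). Cd68, a lysosomal membrane protein of phagocytes, gave 72.6, 36.4 and 53.9 against 32.4, 44.4 and 55.1 (-0.21, adjusted p = 0.736). Adgre1, which encodes the F4/80 antigen, gave 142.9, 96.4 and 114.2 against 118.3, 121.2 and 170.9 (0.19, adjusted p = 0.754). All 3 overlapped between the groups, and in all 3 the library labelled KO 1 was the lowest of its group. Lyz2, lysozyme of macrophages and neutrophils, ran from 632.1 to 1146.4 with a log2 difference of 0.30 (adjusted p = 0.433), and Itgam, the CD11b integrin chain, was dim, at 10.4 to 22.4 (-0.12, adjusted p = 0.899). Without the library labelled KO 1, none of these 5 passed.

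None of the C1q, signalling adaptor and chemokine receptor genes passed either. The 3 chains of C1q, the recognition molecule of the classical complement pathway, are made in tissues chiefly by macrophages. C1qa gave 376.7, 216.1 and 281.2 against 265.6, 310.9 and 394 (log2 difference 0.16, adjusted p = 0.807). C1qb and C1qc had differences of 0.03 (adjusted p = 0.976) and -0.07 (adjusted p = 0.934), with WT 2 and the library labelled KO 1 the lowest hearts of all 3 genes. The adaptors Tyrobp and Fcer1g, which carry signals of activating receptors, had differences of 0.23 (adjusted p = 0.686) and 0.07 (adjusted p = 0.945). The chemokine receptors of monocytes were dim: Ccr2 ran from 12.2 to 41.9 (0.25, adjusted p = 0.734) and Cx3cr1 from 13.6 to 38.8 (-0.06, adjusted p = 0.954), both overlapping. For Ccr2, KO 3 alone stood above the other 5 hearts, at 41.9 against at most 22.7.

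The 4 genes of leukocytes in general all had positive differences, with a median of 0.26, and 0 passed. Ptprc, the CD45 phosphatase found on every leukocyte, gave 116.9, 57.6 and 71.1 against 54, 132.5 and 149.4, with a log2 difference of 0.34 (SE 0.214, adjusted p = 0.579). The library labelled KO 1 was the lowest of the 6 hearts and KO 2 and KO 3 the highest, with WT 1 between. Cd52, a small surface glycoprotein, gave 60.3, 42.4 and 46.6 against 39.8, 101.4 and 90.2 (0.44, SE 0.198, adjusted p = 0.323). The order was the same except that KO 2 lay above KO 3. The integrin chain Itgb2 (0.19, adjusted p = 0.77) and the lysosomal protein Laptm5 (0.09, adjusted p = 0.924) overlapped likewise. Without the library labelled KO 1, Ptprc (0.73) and Cd52 (0.77) passed.

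Of the 4 lymphocyte genes, 1 rose, 1 did not pass and 2 were too dim to test. Jchain, the joining chain made by plasma cells, gave 5.2, 3.5 and 10.3 in the wild type, against 21.6, 119.7 and 80.3 in the libraries labelled KO. The wild-type signals lay around the filter level of 8.17, the lowest mean signal that was tested, and every library labelled KO was above them, KO 1 by the least. The means were 6.33 ± 3.54 and 73.9 ± 49.4 (SD, n = 3 each), with a log2 difference of 1.83 (SE 0.25, adjusted p = 8.05e-07), or 3.56-fold on the log2(signal + 16) scale, which understates changes of dim genes. The wild-type mean was below the filter level, so that the gene was tested only through the group in which it was high. The difference was 2.37 without the library labelled KO 1 and 1.44 without KO 2. Ms4a1, which encodes CD20 of B cells but is lost from plasma cells, ran from 8.5 to 22.3, with a log2 difference of 0.13 (adjusted p = 0.89). The T cell receptor component Cd3e gave 2.3 to 4.1 and the B cell receptor component Cd79a gave 3.3 to 10.6, with overlapping groups and no test.

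Beside Jchain, some immunoglobulin genes were higher. Of 17 B and plasma cell genes tested outside the 31, 3 rose and 0 fell, with a median of 0.07. Ighm, the heavy chain of IgM, gave 66.4, 63.6 and 59.6 against 60.1, 526.4 and 333.3, a log2 difference of 1.62 (SE 0.296, adjusted p = 0.000231). The library labelled KO 1 lay within the wild-type range and KO 2 and KO 3 several times above it. The difference was 2.46 without the library labelled KO 1 and 1.04 without KO 2. That probe set ends in _a_at, for several transcripts of 1 gene; the brightest probe set of Ighm with no such suffix had a difference of 0.13 (adjusted p = 0.884). Iglv1, a lambda variable segment, gave 2.1, 2.9 and 1.5 against 1.9, 55.3 and 33.8 (1.14, adjusted p = 0.0115), again high in KO 2 and KO 3 alone. Its wild-type mean, like that of Jchain, was below the level for testing, and without the library labelled KO 1 the difference was 1.71. Igha, the heavy chain of IgA, gave 9.2, 3.9 and 12.4 against 37.6, 36 and 17.4 (0.90, adjusted p = 0.00985), and here the library labelled KO 1 was the highest. Across the alternatives, Ighm passed in 11 of 19, Iglv1 in 8 of 16 and Igha in 9 of 17. With robust eBayes Ighm had an adjusted p of 0.587. None of the 3 passed without WT 1 or after quantile normalization. Igha also lost its call without WT 2 (0.76), without the library labelled KO 1 (0.78) or without KO 2 (0.80), and Iglv1 without KO 2 (0.72). With the mean of a gene's probe sets, Igha had a difference of 0.34 (adjusted p = 0.552), Iglv1 1.14 (adjusted p = 0.0592) and Ighm 0.82 (adjusted p = 0.0456). The probe set of Igha ends in _a_at as well. IgM and IgA are the classes that the joining chain links.

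Genes of other tissues were high in some of the same hearts. The lung secretoglobins Scgb1a1 and Scgb3a2 had log2 differences of 1.74 (adjusted p = 0.00756) and 1.21 (adjusted p = 0.0297), but both were tested only through the libraries labelled KO, their wild-type means lying below the filter level. KO 2 had signals of 323.5 and 167, KO 3 of 23.2 and 12.7, and the other 4 hearts of at most 9.1. The summed signal of the 8 lung epithelium markers lay between 46.9 and 64.8 in the wild type, while KO 1 to KO 3 gave 61.7, 533 and 87.8. The 3 tested surfactant genes did not pass: Sftpc had a difference of 0.44 (adjusted p = 0.454), Sftpb -0.24 and Sftpd -0.07. The wild-type mean of Sftpc also lay below the filter level. Adipocyte markers were also higher, with 5 of 8 tested past the test and a median of 0.83. Of these 5, Ucp1 was tested only through the libraries labelled KO, its wild-type mean lying below the filter level. Averaged over the markers, the log2 signal relative to the wild-type mean was 0.50, 1.5 and 1.24 in KO 1 to KO 3. For Adipoq, an adipocyte hormone, the signals were 22.3, 15.7 and 17 against 54, 390.7 and 323. Jchain, Ighm and Iglv1 were highest in KO 2, the heart with the high secretoglobins, while the class II genes were highest in KO 3. The part of lung or fat tissue in the rise of Jchain and the class II genes was not tested. Of 3 thymus markers tested, 0 passed (median 0.12), and of 4 erythroid and platelet markers 1 fell (Ppbp, -0.90, adjusted p = 0.00832).

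**Figure D4:**
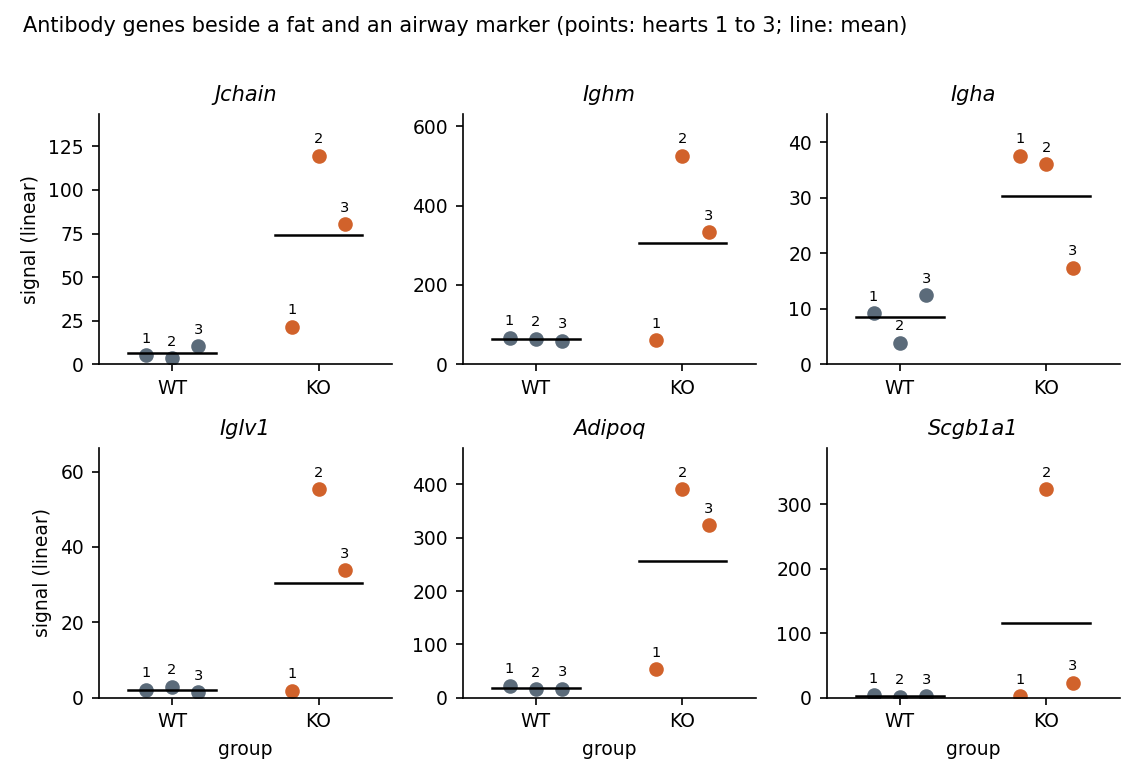
Array signal (vertical axis, linear, from 0, 1 panel per gene) of Jchain, Ighm, Igha and Iglv1 and, from other tissues, of Adipoq and Scgb1a1, with 1 numbered point per heart and a line at the group mean. KO 2 and KO 3 are high for Jchain, Ighm, Iglv1 and Adipoq, the library labelled KO 1 is at the wild-type level for Ighm and Iglv1, and Scgb1a1 is high in KO 2 above all.

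The calgranulins, calcium-binding proteins that fill the cytoplasm of neutrophils, did not pass. S100a8 gave 44.7, 31.5 and 53.1 against 23.9, 29.3 and 55.3 (log2 difference -0.21, adjusted p = 0.755). S100a9, its partner, gave 42.2, 24 and 51.6 against 9.5, 32.1 and 39.6 (-0.40, SE 0.218, adjusted p = 0.47). The library labelled KO 1 had the lowest signal of both, and without it the differences were -0.04 for S100a8 and -0.06 for S100a9. Of 8 other neutrophil and mast cell genes tested, 0 passed and the median was 0.00. The smallest p-values were those of the receptor Csf3r (-0.52, adjusted p = 0.378) and the granule protein Ltf (0.47, adjusted p = 0.486). The mean of Csf3r in the libraries labelled KO and the wild-type mean of Ltf lay below the level for testing.

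Other genes of the same cell types were taken from lists of their own. Of 25 further macrophage genes tested, 1 rose and 0 fell, with a median of 0.03. It was Lgals3, galectin-3, a lectin of activated macrophages that other cells make as well, which gave 53, 20.6 and 60 against 140, 181.6 and 144.6, a log2 difference of 1.56 (adjusted p = 9.97e-08). Unlike the class II genes, Lgals3 was raised to about the same signal in all 3 libraries labelled KO. Of 11 monocyte genes tested, 2 rose and 0 fell, with a median of 0.12. Hp, haptoglobin, the plasma protein whose complex with haemoglobin Cd163 takes up, gave 14.1, 10.2 and 10.6 against 28.3, 64.7 and 50.2 (1.17, adjusted p = 0.000138). It is also made by adipocytes, and KO 2 and KO 3 had the highest adipocyte markers; their part in Hp was not tested. Both Lgals3 and Hp passed with any 1 heart left out. Vcan, the matrix proteoglycan versican, which fibroblasts make too, gave 51.2, 32.9 and 30.5 against 50.2, 67.1 and 89.2 (0.64, adjusted p = 0.0451), and with 1 heart left out passed only without the library labelled KO 1. The monocyte gene Fn1 did not pass over all hearts (0.55, adjusted p = 0.135). It rose without the library labelled KO 1 (0.83, adjusted p = 0.00326). In that fit 3 monocyte genes rose, Vcan, Fn1 and Hp. Of 10 fibroblast markers tested, 1 rose (Col3a1, 0.49, adjusted p = 0.0267), with a median of 0.40.

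Of 11 T and NK cell genes tested, 0 passed, with a median of -0.11; Cd247, the zeta chain of the T cell receptor, was lower in every library labelled KO at signals of 2.7 to 15 (-0.53, adjusted p = 0.307), and Il2rb had a difference of -0.46 (adjusted p = 0.471). The means of Cd247 and Il2rb in the libraries labelled KO lay below the level for testing. The T and NK genes Cd3d, Lat, Cd2, Ncr1 and Tbx21 stayed under a signal of 10 in every heart. Other genes of this list below the level for testing went both ways. Nkg7 gave 3.7, 3.5 and 0.4 against 7.3, 10.2 and 10.9, and Gzmb 5.4, 5.9 and 0.5 against 3.6, 13.4 and 14.6. Ccl5 gave 3.9, 1.7 and 2 against 4.3, 9 and 36.7. Lower on average was Cd8b1, with 12.7, 4.8 and 4.3 against 3.3, 0.4 and 8.6. Of 19 chemokines, survival factors and endothelial adhesion molecules tested, 0 passed and the median was 0.18; the chemokines Ccl6 (0.59, adjusted p = 0.0764) and Ccl9 (0.59, adjusted p = 0.0839) had the smallest p-values, and without the library labelled KO 1 Ccl9 rose (0.76, adjusted p = 0.00978) while Ccl6 had 0.37. Of 9 cytokine and inflammasome genes tested, 1 rose: Il33, an alarm cytokine of stromal and mesothelial cells, gave 21.4, 22.4 and 11.7 against 35.4, 37.8 and 52.4 (0.75, adjusted p = 0.0189), a call that ended without WT 1 (0.82), WT 3 (0.60) or KO 3 (0.62). Of 9 mesothelial markers tested, 2 rose, Upk3b (1.01, adjusted p = 7.14e-05) and Lrrn4 (0.72, adjusted p = 0.00953). The other 7 did not pass, among them Msln (0.63, adjusted p = 0.105), Upk1b (-0.02) and Wt1 (-0.09), and the summed signal was 285 to 368 in the wild-type hearts and 521 to 594 in the libraries labelled KO. The part of this tissue in Il33 was not tested.

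Of 11 complement genes other than C1q tested, 1 rose and 1 fell, with a median of 0.27. C1s1, a protease of the classical complement pathway, gave 81.1, 59.1 and 66.9 against 105.6, 106.5 and 151.2 (0.68, adjusted p = 0.018), with no overlap. Masp1, a protease of the lectin pathway, gave 81.5, 83.2 and 68.1 against 44.1, 22.7 and 27.2 (-1.01, adjusted p = 0.000219), also with no overlap. Among the fits with 1 heart left out, the call for C1s1 ended without each of the wild-type hearts and without KO 3, and that for Masp1 without WT 1 (-0.97). C1s1 passed in 12 of 18 alternatives and Masp1 in 16 of 19; with the mean of its probe sets Masp1 had a difference of -0.20. Endothelial markers, as a further cell type of the vessel wall, had 0 of 10 tested past the test and a median of -0.01.

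How many of the 28 genes passed depended on single hearts. Without the library labelled KO 1, 9 rose (Ptprc, Cd52, Cd163, Lyve1, Jchain and the 4 class II genes; 2.33% of all genes rose), and without KO 3, 2 rose (Cd163 and Jchain; 0.95% of all genes). Without WT 1, 1 rose (Cd163; 0.811% of all genes), and Jchain did not pass, at a log2 difference of 1.80. Without KO 2, 6 rose (1.35% of all genes), without WT 2, 5 rose (1.26%), and without WT 3, 4 rose (1.37%). After quantile normalization, 2 rose (Cd163 and Jchain; 2.01% of all genes), with H2-Ab1 at 0.94, H2-Aa at 0.68 and Lyve1 at 0.67, so the differences were as large but did not pass. The counts were 3 with a pseudocount of 1 (1.52% of all genes), 5 with one of 64 (1.84%), 2 after median centring (1.73%) and 3 after cyclic loess (2.1%). They were 0 with no filter on dim genes (0.264% of all genes) and 7 with a filter at the 60th percentile (2.72%). With the mean of a gene's probe sets 3 rose (1.33%), and without probe sets of the suffixes _x_at, _s_at and _a_at, 3 rose of 21 tested (1.6%). Without the intensity trend 2 rose (0.881%), with robust eBayes 5 (2.03%), with array weights 5 (3.35%) and with the mouse number as a block 5 (1.83%). None fell in any of these fits. Cd163 was the gene among the 28 that passed in the most settings, 18 of 19 alternatives, followed by Jchain in 17 of 19, H2-Ab1 in 10 of 18, Lyve1 in 10 of 19 and H2-Aa in 8 of 18. Jchain passed the filter only through the libraries labelled KO. The fits with 1 heart left out kept the filter of all 6 arrays, so its count carries this selection.

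**Figure D5:**
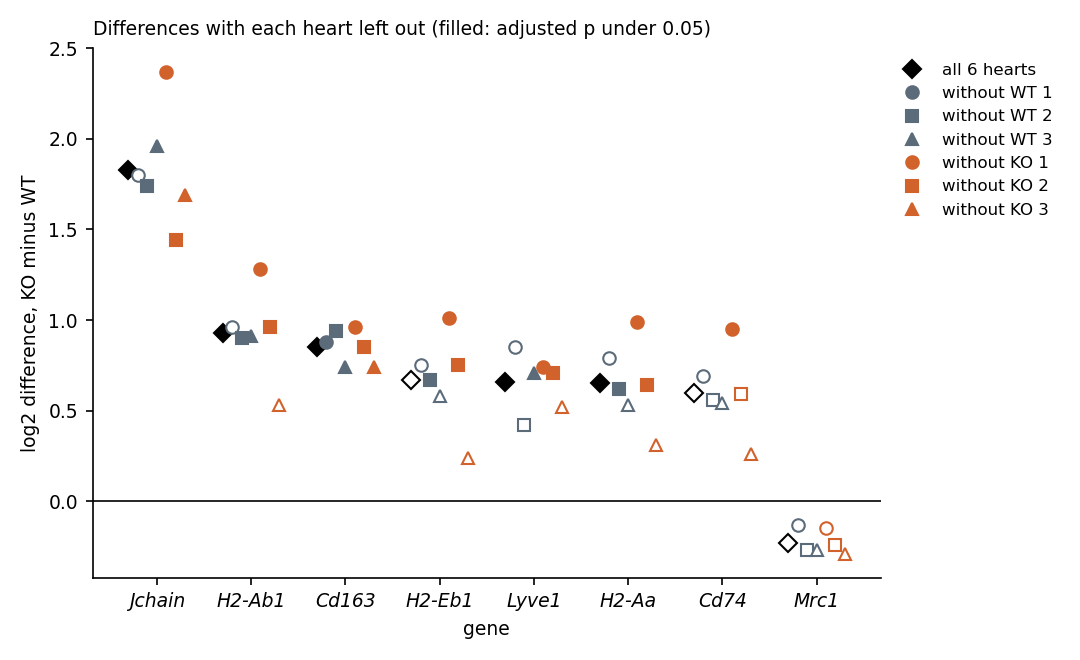
Log2 difference (KO minus WT, vertical axis) of Cd163, Lyve1, Mrc1, Jchain and the 4 class II genes over all hearts and with each heart left out in turn; filled points passed an adjusted p of 0.05 and open points did not. Cd163 stays filled and Mrc1 open throughout, and the class II genes are largest without the library labelled KO 1 and smallest without KO 3.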

How the data were processed

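RNA of 6 whole hearts was measured on 6 arrays. The deposited value table holds linear signal intensities, 1 for each probe set, made with MAS5 per the submitters' processing notes; detection calls were not used here. Values were taken as deposited and tested as log2(signal + 16). Of 45099 probe sets, 62 controls were dropped, and the 34945 with 1 symbol in the platform annotation were kept if their mean reached the 40th percentile (signal 8.17). Each gene was read by its brightest such probe set, which left 12946 genes. limma 3.58.1 in R 4.3.3 (lmFit, eBayes with an intensity trend, prior degrees of freedom 45.6) compared the 3 KO with the 3 WT libraries, with Benjamini-Hochberg adjustment over all 12946 genes and a threshold of 0.05. The script was tested on simulated data. The 31 genes and the other lists were chosen with earlier results of these data known. All 31 are named. From each other immune list the text names those past the threshold, at most 4, or the 2 with the smallest p; from each context list it names up to 3. Genes named outside this rule (Cd3d, Lat, Cd2, Ncr1, Tbx21, Nkg7, Gzmb, Ccl5, Cd8b1, Ifi30, Fn1, Sftpb, Sftpd, Ucp1, Upk1b, Wt1) were chosen after their values were seen. No label says more of the replicates than that they are separate mice. Of the alternatives tried, 13 changed a setting and 6 left out a heart. Promoter sequences are from RefSeq. The number of arrays limits the precision.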

Additional observations from a re-analysis of the deposited data

How the results depend on the processing

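Of the 28 genes, 5 rose and 0 fell; none fell under any of the 19 alternatives. With 1 heart left out in turn, 1 to 9 rose, while 0.811% to 2.33% of all genes did; the report gives that share for each other setting, from 0.264% with no filter to 3.35% with array weights. The count was 3 with a pseudocount of 1, 2 after quantile normalization, 2 after median centring, 3 after cyclic loess, 3 with the mean of a gene's probe sets, 3 without the suffixes _x_at, _s_at and _a_at and 2 without the intensity trend. With no filter on dim genes, where 31 were tested, it was 0 by limma, with 7 at an unadjusted p under 0.05 and a lowest adjusted p of 0.0649. The count was 5 with a pseudocount of 64, 7 with a filter at the 60th percentile, and 5 with robust eBayes and with array weights. Mice of the same number did not deviate together (correlations of 0.027, -0.016 and 0.029), and with the mouse number as a replicate block 5 rose. Differences near 0 turned sign. Csf1r was 0.03 after quantile normalization, 0.01 after median centring, 0.04 after cyclic loess, 0.06 with the mean of probe sets and 0.10 with array weights. Laptm5 was -0.04 and Cx3cr1 0.08 with the mean of probe sets, and Cx3cr1 was 0.08 and C1qc 0.07 with array weights. With 1 heart left out, the log2 difference ran from -0.18 to 0.37 for Laptm5, -0.10 to 0.14 for Csf1r, -0.20 to 0.38 for Fcer1g, -0.01 to 0.47 for Ccr2, -0.25 to 0.20 for Cx3cr1, -0.03 to 0.35 for C1qa, -0.17 to 0.29 for C1qb, -0.25 to 0.12 for C1qc and -0.01 to 0.31 for Ms4a1. The cause of these changes was not tested. With 3 hearts a group, and signals near the filter level for Timd4, Cd3e, Cd79a and Jchain in the wild type, small differences in dim genes were not detectable.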
